A study of Mus musculus with 12 samples.

Results

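The RMER and BGLII repeats are long terminal repeat (LTR) elements that the repeat annotation of the mouse genome places in the ERVK family. Members were taken by name, as every repeat locus of family ERVK whose name begins with RMER or BGLII. The rule found 15169 loci among 781935 repeat loci and 54898 ERVK loci, and they carry 52 names. Of these names, 50 are listed in the table of 1528 repeat subfamilies, 45 of them LTRs and 5 internal parts. RMER3D1 and RMER3D2 are not in that table, RMER3D3 had too few reads to be tested, and the remaining 49 names were tested. A further 12 RMER names in the table belong to other repeat families by the annotation and are not members, and 1 more, RMER3D4, was left out because it has no listed locus to give its family.

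RNA-seq was performed on testes of C57BL/6 Mael-/- mice about 3 months old, in 4 groups of 3 libraries, and no library came from another genotype. TOTAL was the clarified extract after EDTA had been added to 10 mM, and INPUT was the pool of fractions 5 to 8 of a sucrose gradient of that extract. IP and BO were both taken from INPUT, IP with anti-L1 ORF1p antibody coupled to beads and BO with beads that carried no antibody. Nothing in the labels says that the 3 libraries of a group came from separate animals, so p-values measure only the spread between these libraries.

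ERVK elements are endogenous retroviruses of the beta-retrovirus-like class. A complete copy has an internal part, which holds the retroviral genes, between 2 LTRs, which hold the promoter and the polyadenylation signal. Recombination between the LTRs of a copy leaves a solitary LTR, so most copies in a genome are LTRs alone. ORF1p is the RNA-binding protein of LINE-1, a retrotransposon without LTRs, and MAEL is a protein of the piRNA pathway, which silences retrotransposons in male germ cells.

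Reads assigned to repeat subfamilies numbered 6021800 to 7282171 in TOTAL, 3045169 to 3880641 in INPUT, 1712212 to 3512997 in BO and 1384904 to 2003193 in IP. Members took 34678 to 63169 of these reads in TOTAL, 47191 to 53450 in INPUT, 26599 to 68937 in BO and 24139 to 36159 in IP. BO replicate 3 stood apart, with 52.1% of its reads on LSU rRNA. The 7SL RNA held 38.1% to 51.6% of reads in TOTAL and at most 1.63% in IP, so comparisons rest on normalised counts and not on shares of all reads. Mael had a mean of 0.65 normalised counts in TOTAL by the authors' table. Spermatocyte markers were present in TOTAL, with authors' means from 143 to 9433 for the 6 genes, while the 4 spermatid markers had means of only 11.7 to 30.1. For such levels in the whole extract, fewer cells of a type and less RNA per cell cannot be told apart. In IP beside TOTAL all 6 spermatocyte markers had higher means (summed 127819 against 19929), while the 5 Leydig cell markers (15226 against 77573), the 5 Sertoli cell markers (4124 against 17839), the 5 spermatogonial markers (3467 against 6042) and the 4 spermatid markers (2.33 against 77.0) had lower ones. These lists move with the IP vs TOTAL comparison, and their part in the values of members was not tested.

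The first question was whether the levels of members were higher in IP than in BO. Levels are upper-quartile normalised counts, which are not corrected for the length or number of copies of a subfamily. Each library was scaled to the same upper quartile, so levels compare composition and not the amount of RNA that the beads recovered. Summed over the 50 names, member levels were 42654 to 44743 in BO and 34621 to 35505 in IP, and the ranges do not overlap. This depends on the scaling. Of all reads, members held 0.949% to 2.009% in BO and 1.743% to 1.805% in IP, which overlap, and 0.572% to 0.867% in TOTAL. TOTAL held 37679 to 39082 and INPUT 40394 to 44333. Without the 4 subfamilies described next, the sums were 29066 to 29904 in BO, 30528 to 31906 in IP, 31087 to 31525 in INPUT and 31421 to 31565 in TOTAL. These 4 names were chosen by their calls, so the second set of sums is a description of what the other names hold.

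RMER16A3, an LTR subfamily with 74 loci, had the lowest fold change of the members between IP and BO. Its level was 7442, 8623 and 7216 in the 3 BO libraries and 2011, 1625 and 1445 in the 3 IP libraries. INPUT held 3063, 2869 and 2562, and TOTAL held 2319, 2283 and 1980. All 3 BO libraries were above every other library, and IP overlapped TOTAL only. The log2 fold change in IP vs BO was -2.20 with a standard error of 0.12 (limma, adjusted p = 1.525e-07), the 9th lowest of 1180 tested subfamilies. RMER16A3 was also the only member called between BO and INPUT, where it was higher in BO by 1.45 on the log2 scale (limma, adjusted p = 8.441e-06). It made up 17.9% of the member sum in BO, 6.79% in INPUT, 5.73% in TOTAL and 4.82% in IP. Without BO replicate 3 the values were -2.255 for IP vs BO and 1.504 for BO vs INPUT.

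RMER6B, an LTR subfamily of 313 loci, was the second most abundant member by mean count. Its levels were 8178, 5080 and 4954 in INPUT, 5037, 4635 and 4116 in BO, 4145, 3218 and 3015 in TOTAL, and 2196, 1582 and 1300 in IP. Every IP library was below every other library, and the library numbered 1 was the highest of its group in all 4 groups. RMER6B was lower in IP than in BO by a log2 fold change of -1.47 (SE 0.22, limma adjusted p = 0.0002753) and lower than in INPUT by -1.84 (adjusted p = 9.134e-05). On library totals the value against BO was -0.97 (limma, adjusted p = 0.05802), which ends that call. Against TOTAL the value was -1.05 (limma, adjusted p = 0.004808). This last value moved to -0.91 without TOTAL replicate 1 and to -0.88 without IP replicate 3, neither of which is past 1, and to 0.50 on library totals, where its sign turns.

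RMER12B, an LTR subfamily of 179 loci, was likewise lowest in IP, at a lower level. It stood at 655, 525 and 483 in IP, at 867, 899 and 881 in TOTAL, at 1356, 1183 and 1179 in INPUT, and at 1276, 1448 and 1195 in BO. IP did not overlap any other group, and BO and INPUT overlapped each other. The log2 fold change was -1.24 against BO (SE 0.11, limma adjusted p = 6.529e-06) and -1.17 against INPUT (adjusted p = 2.551e-05). On library totals both calls ended, at -0.75 and -0.62 (limma, adjusted p = 0.1384 and 0.1858). Against TOTAL it was -0.68 (limma, adjusted p = 0.001184), which passed the test but not a size of 1, and which turned to 0.86 on library totals.

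RMER16_Mm, an LTR subfamily of 86 loci, was highest in TOTAL. Its level was 327, 239 and 238 in TOTAL, 223, 176 and 178 in INPUT, 146, 137 and 223 in BO, and 116, 127 and 136 in IP. TOTAL lay above every other library, and IP lay below every library of the other groups. Between IP and TOTAL the log2 fold change was -1.07 (SE 0.19, limma adjusted p = 0.002022), and against INPUT the value was -0.60 (adjusted p = 0.03589). The comparison with BO gave -0.38 (limma, adjusted p = 0.1439), which does not pass the test, and it moved to -0.16 without BO replicate 3. Without TOTAL replicate 1 the IP vs TOTAL value was -0.92, and on library totals it was 0.47. On library totals the value against INPUT was -0.05 (limma, adjusted p = 0.9073), which no longer passes.

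**Figure D1:**
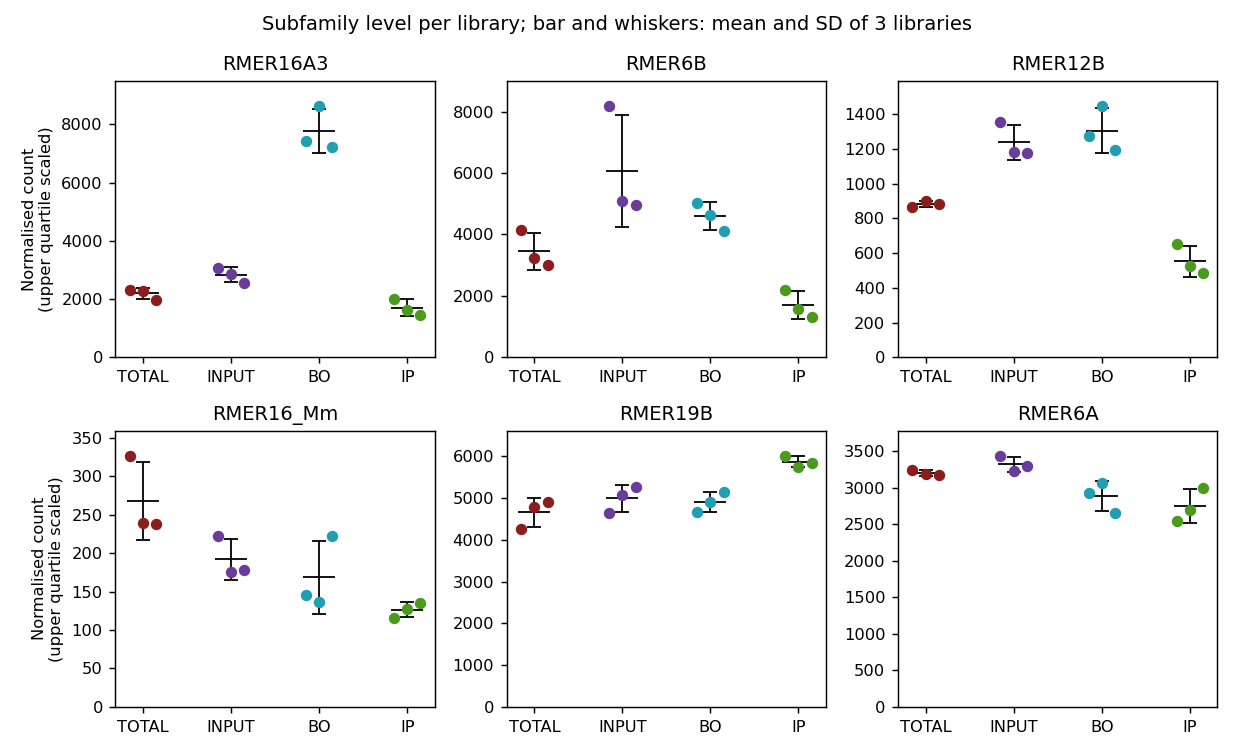
Normalised counts of 6 member subfamilies in each of the 12 libraries, with points for libraries and a bar with whiskers for the mean and SD of the 3 libraries of a group. RMER16A3 is highest in the 3 BO libraries (7216 to 8623), RMER6B and RMER12B are lowest in the 3 IP libraries, and RMER19B is highest in IP (5755 to 6013).

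Calls required a log2 fold change past 1 in either direction and an adjusted p under 0.05 over the 1180 tested subfamilies. In IP vs BO, 0 of 49 members were called higher by limma and 3 were called lower, where 5.08% of all subfamilies were higher and 3.81% lower. In IP vs INPUT, 0 were higher and 2 lower, against 3.22% and 2.88% of all. In IP vs TOTAL, 0 were higher and 2 lower, against 2.88% and 3.47% of all. In INPUT vs TOTAL, 0 were called in either direction, against 0% and 0.339% of all, and in BO vs INPUT 1 was higher and 0 lower, against 2.63% and 2.8%. At an unadjusted p under 0.05 and past 1, limma gave 1 higher member in IP vs BO and 1 lower in BO vs INPUT, both BGLII_C, and 0 wherever else no member was called. BGLII_C stood at 9, 18 and 21 in IP and at 9, 3 and 5 in BO, and its log2 fold change of 1.45 had an adjusted p of 0.05779 with limma. DESeq2 on the recovered reads called it higher in IP vs BO, and edgeR did not. No other member was called higher in IP vs BO, INPUT or TOTAL by limma under upper-quartile scaling. The same held for edgeR and DESeq2, each under its own scaling.

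The 2 subfamilies taken as reference values were far above the members. Between IP and BO, L1Md_A, a young LINE-1 subfamily, differed by 2.32 on the log2 scale, and MMERVK10C-int, the internal part of another ERVK element, by 2.38 (limma, adjusted p = 5.609e-06 and 5.02e-06). Among the 218 other ERVK subfamilies tested, 22 were called higher and 13 lower in IP vs BO. Between IP and BO the median was -0.07 over the members on the log2 scale, -0.06 over the other ERVK subfamilies and -0.12 over all. It was -0.19 over the members and -0.06 over all in IP vs INPUT, and -0.21 and -0.05 in IP vs TOTAL. On library totals the median of all subfamilies moved to 0.36, 0.47 and 1.49 in the 3 comparisons, so fold changes here are relative to the upper quartile. Each of the 12 members that were lower in IP than in TOTAL at an adjusted p under 0.05 had a value above 0 on library totals.

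Against BO, 45 of the 49 members lay within 1 on the log2 scale, as did 47 against INPUT and 47 against TOTAL. At an adjusted p under 0.05 with no limit on size, limma found 9 members higher and 8 lower in IP vs BO, where 11.3% of all subfamilies were higher and 23.2% lower. IP vs INPUT gave 7 higher and 14 lower against 11.0% and 16.7% of all, and IP vs TOTAL gave 4 and 12 against 10.2% and 12.5%. BO vs INPUT gave 5 and 8 against 17.2% and 11.7%, and INPUT vs TOTAL gave 0 and 2 against 0.847% in each direction, with 5 higher and 6 lower members at an unadjusted p under 0.05. The replicate block added a term for the replicate number over all 4 groups to the fit. With the block, INPUT vs TOTAL gave 3 higher and the same 2 lower, against 2.97% and 2.71% of all. The 3 higher were RMER6B by 0.79, RMER12B by 0.49 and RMER16A3 by 0.37 (limma, adjusted p = 0.002514, 0.0249 and 0.0431). With 49 members, 1 subfamily is 2.04% of them. On library totals, 7 of the 9 higher members and 1 of the 8 lower ones against BO still passed in the same direction, as did 3 of 7 and 1 of 14 against INPUT and 4 of 4 and 0 of 12 against TOTAL. In BO vs INPUT 1 of 5 and 0 of 8 did.

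**Figure D2:**
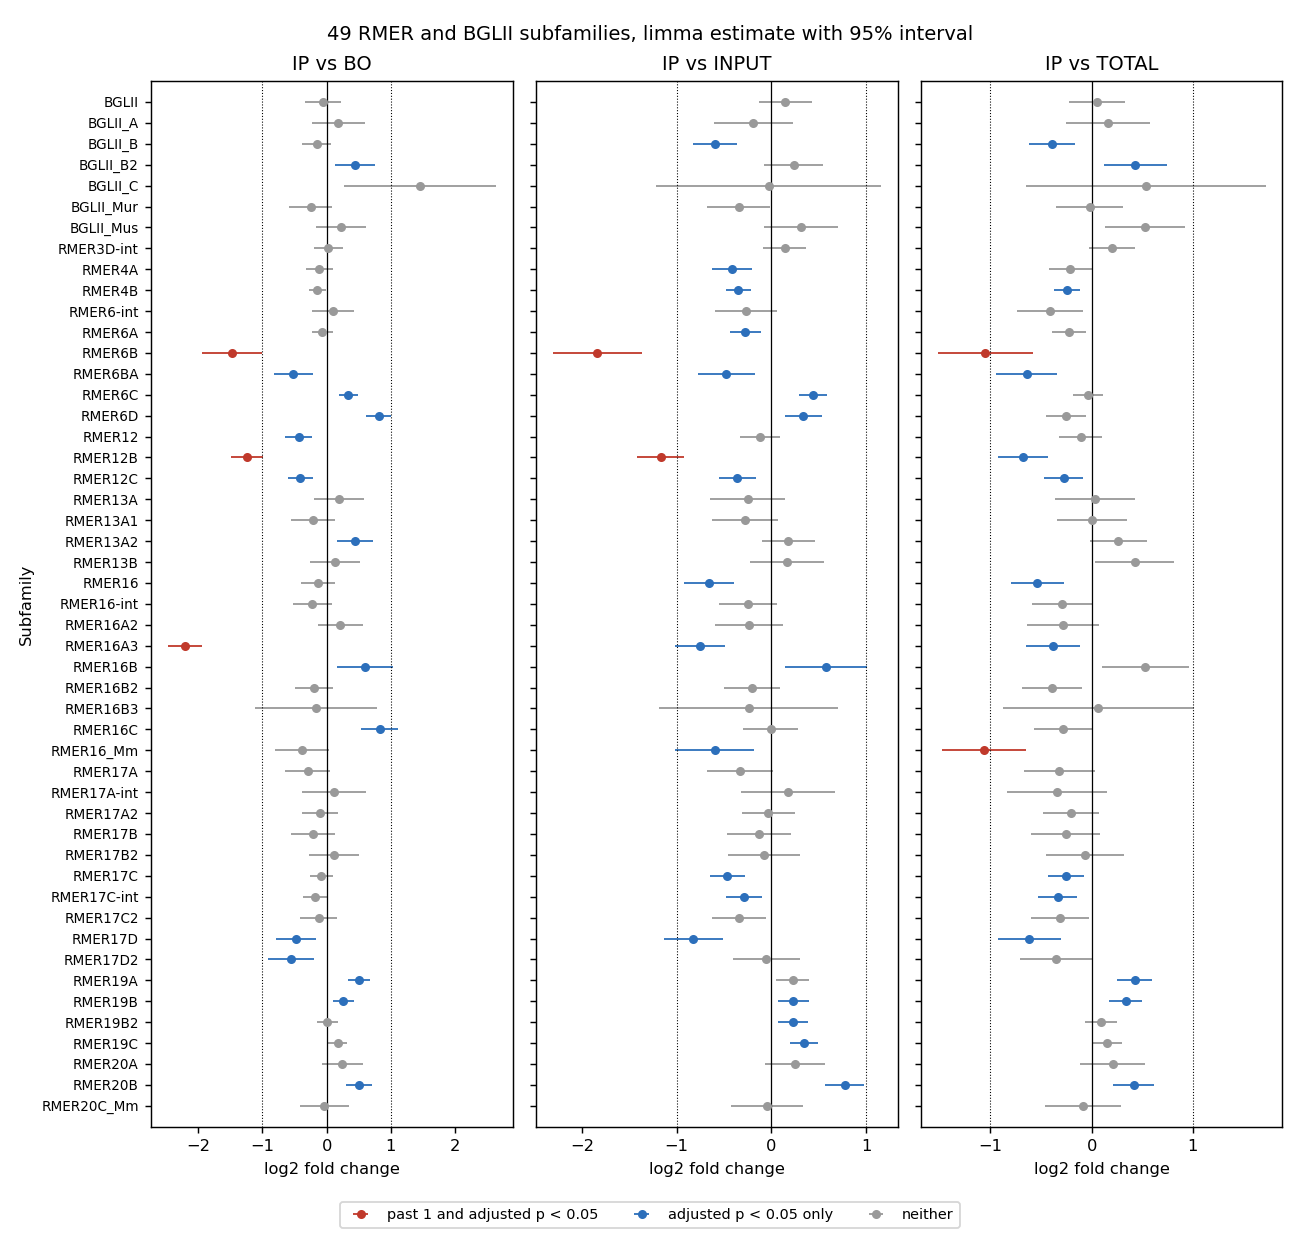
Log2 fold change of each of the 49 tested members between IP and the 3 other groups, with 95% intervals from limma, ordered by name. Dotted lines mark 1 and -1, and red points passed both the size and the adjusted p. RMER16A3, RMER6B and RMER12B stand apart at the left in IP vs BO, and 45 members lie within the dotted lines.

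The RMER19 subfamilies were the most abundant stem in IP, with summed levels of 9620, 9385 and 9301 in IP, 7914, 7755 and 8199 in BO, 7524, 8078 and 8293 in INPUT, and 7324, 7806 and 8002 in TOTAL. None of the 4 RMER19 names passed the test in the lower direction in any IP comparison, and 2, 3 and 2 of them passed in the higher direction against BO, INPUT and TOTAL, where 11.3%, 11.0% and 10.2% of all subfamilies did. RMER19B, the member with the highest mean count and 1554 loci, held 6013, 5755 and 5839 in IP. It held 4673, 4902 and 5151 in BO, 4639, 5082 and 5260 in INPUT, and 4263, 4793 and 4919 in TOTAL. IP did not overlap the other groups, and those groups overlapped each other. The log2 fold changes were 0.26 against BO, 0.23 against INPUT and 0.34 against TOTAL (limma, adjusted p = 0.01744, 0.03385 and 0.007206). RMER19A was higher in IP than in BO by 0.51 and than in TOTAL by 0.43 (limma, adjusted p = 0.0004272 and 0.002664), and the value against INPUT was 0.23 (adjusted p = 0.05034).

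RMER20B was, with RMER19B, the only member that passed the test in the higher direction in all 3 IP comparisons. It stood at 631, 593 and 568 in IP, 377, 414 and 476 in BO, 349, 344 and 351 in INPUT, and 468, 450 and 423 in TOTAL. IP was above every other library. The log2 fold changes were 0.50 against BO, 0.78 against INPUT and 0.42 against TOTAL (limma, adjusted p = 0.001328, 0.0001073 and 0.007701). On library totals RMER20B still passed against BO and INPUT (limma, adjusted p = 0.02545 and 0.002907), while RMER19B did not (limma, adjusted p = 0.1296 and 0.09705). RMER20A and RMER20C_Mm did not pass the test in any IP comparison.

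Of the 6 RMER6 names, 2 passed the test in the higher direction and 2 in the lower in IP vs BO, and RMER6A and RMER6-int did not pass. Of all subfamilies, 11.3% passed there in the higher direction and 23.2% in the lower. RMER6D stood at 1368, 1314 and 1198 in IP, 735, 718 and 754 in BO, 1156, 904 and 1019 in INPUT, and 1596, 1478 and 1536 in TOTAL. Its groups fell in the order TOTAL, IP, INPUT, BO with no overlap between them. It was higher in IP than in BO by 0.81 (limma, adjusted p = 3.343e-05), and it was lower in INPUT than in TOTAL, with -0.59 (limma, adjusted p = 0.006452). RMER6C was also higher in IP than in BO, by 0.34, and lower in INPUT than in TOTAL, with -0.47 (limma, adjusted p = 0.002235 and 0.006452). These were the 2 members that passed the test between INPUT and TOTAL without the block, and on library totals their values there turned to 0.42 and 0.53. RMER6BA went the other way, at -0.52 on the log2 scale against BO (limma, adjusted p = 0.01185). On library totals RMER6C and RMER6BA stood at 0.83 and -0.03 against BO (limma, adjusted p = 0.0818 and 0.9604), and neither passed. RMER6A, the fourth most abundant member, had levels of 2549 to 3003 in IP and 2660 to 3069 in BO, which overlap, and a log2 fold change of -0.07 that turned to 0.06 under median-ratio scaling.

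All 3 RMER12 names passed the test in the lower direction in IP vs BO, where 23.2% of all subfamilies did. RMER12 had a log2 fold change of -0.43 and RMER12C one of -0.41 (limma, adjusted p = 0.004222 and 0.00389), and on library totals these turned to 0.06 and 0.09. Against INPUT 2 of the 3 passed, and against TOTAL 2 of 3, where 16.7% and 12.5% of all did.

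The 9 RMER16 names included the lowest of the fold changes against BO, that of RMER16A3, and also RMER16C, which was higher. RMER16C stood at 302, 262 and 291 in IP, 147, 151 and 183 in BO, 336, 248 and 280 in INPUT, and 380, 346 and 318 in TOTAL. BO was below all other libraries, and IP overlapped INPUT. RMER16C was higher in IP than in BO by 0.83 and lower in BO than in INPUT, with -0.84 (limma, adjusted p = 0.0004661 and 0.0007255). RMER16B was higher in IP than in BO by 0.60, with levels of 84 to 114 in IP and 59 to 74 in BO (limma, adjusted p = 0.0326). RMER16, the subfamily named by the stem alone, was lower in IP than in INPUT and TOTAL, with -0.66 and -0.54 (limma, adjusted p = 0.001727 and 0.007289), but on library totals the first moved to -0.11 (limma, adjusted p = 0.82) and the second turned to 1.003.

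None of the 10 RMER17 names passed the test in the higher direction in the IP comparisons, and 2, 3 and 3 passed in the lower direction against BO, INPUT and TOTAL, where 23.2%, 16.7% and 12.5% of all subfamilies did. RMER17D passed in all 3, with log2 fold changes of -0.48, -0.82 and -0.61 (limma, adjusted p = 0.02029, 0.001308 and 0.009497), and on library totals the values against BO and TOTAL turned to 0.01 and 0.93 and that against INPUT moved to -0.28 (limma, adjusted p = 0.55), which no longer passes. RMER4A and RMER4B were lower in IP than in INPUT by log2 fold changes of -0.42 and -0.35 (limma, adjusted p = 0.007027 and 0.001237), and turned to 0.13 and 0.20 on library totals. RMER4B, the fifth most abundant member, stood at 1911 to 2109 in IP and 2491 to 2576 in INPUT.

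Among the 7 BGLII names, BGLII_B2 was higher in IP than in BO by 0.44 and than in TOTAL by 0.43 (limma, adjusted p = 0.02993 and 0.04601). BGLII_B was lower in IP than in INPUT and TOTAL, with -0.59 and -0.39 (limma, adjusted p = 0.001428 and 0.02089), and on library totals these moved to -0.05 (limma, adjusted p = 0.9156) and 1.16. The summed BGLII level was 1283 to 1498 in IP and 1336 to 1405 in BO, which overlap. Of the 4 RMER13 names, RMER13A2 was higher in IP than in BO by 0.44 (limma, adjusted p = 0.02008), and no RMER13 name passed against INPUT or TOTAL.

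The 5 internal parts, which in an intact copy carry the retroviral genes, had fold changes close to 0 against BO. They lay between -0.22 and 0.11 in IP vs BO, and none of them passed the test there. RMER17C-int was the only internal part that passed in an IP comparison, with -0.29 against INPUT and -0.34 against TOTAL (limma, adjusted p = 0.02621 and 0.0163), and on library totals these values turned to 0.25 and 1.21. Over the 44 tested LTRs the range in IP vs BO was -2.20 to 1.45, and the medians of internal parts and LTRs were 0.03 and -0.07.

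Ratios of 2 subfamilies within a library do not depend on the scaling, and 4 ratios were formed for the called names after their values had been seen. The log2 ratio of RMER16A3 to RMER16-int was 2.84, 2.97 and 2.93 in BO and 1.31, 0.84 and 0.64 in IP. It was 1.358, 1.444 and 1.499 in INPUT and 0.774, 1.244 and 1.043 in TOTAL, so that IP overlapped TOTAL and lay below the other groups. The ratio of RMER6B to RMER6A was -0.215, -0.77 and -1.21 in IP, and 0.785, 0.60 and 0.63 in BO. The names were chosen because they were called lower in IP, so the ratios are a description and no test is given. IP overlapped another group for RMER16A3 to RMER16-int against TOTAL and for RMER16_Mm to RMER16-int against BO.

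**Figure D3:**
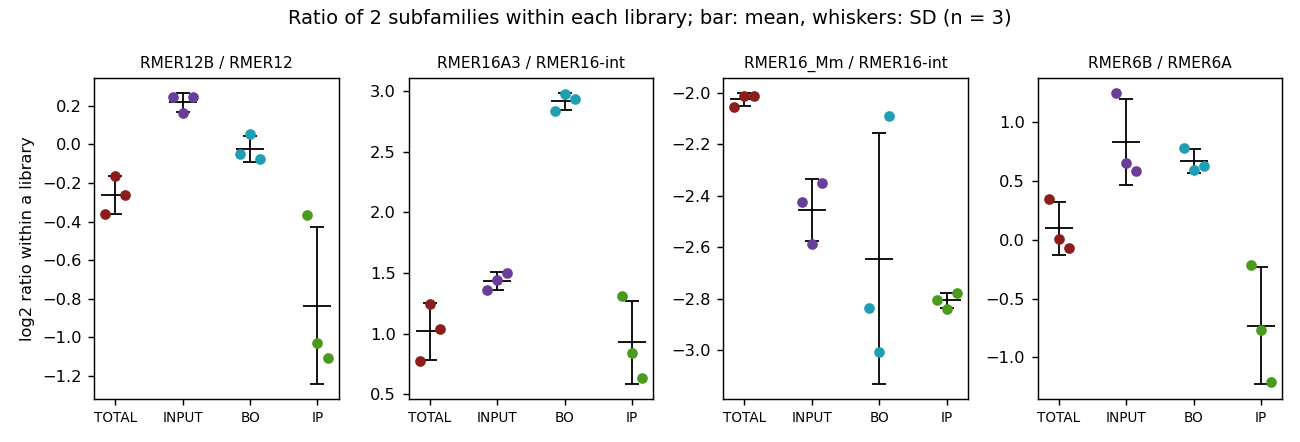
Log2 ratio of a called subfamily to another member of its stem in each library, with points for the 12 libraries and a bar with whiskers for the mean and SD of 3. The RMER16A3 ratio is highest in BO (2.84 to 2.97), and the RMER6B and RMER12B ratios are lowest in IP. For RMER12B the margin to TOTAL is narrow, with -0.367 in IP replicate 1 and -0.358 in TOTAL replicate 1.

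Single loci are listed only as the authors' group means of normalised counts, with no value per library, so no test or spread is given for them, and each comparison stays within the table that pairs IP with 1 other group. The IP mean of a locus therefore differs between tables. Of the 15169 member loci, 5881 were listed at 0 in both groups of the IP and BO table, and 239 had a mean of at least 10 in BO or IP. Of these 239 loci, 30 were at least 2-fold higher in IP and 129 at least 2-fold lower, on means plus 1, which is 12.55% and 53.97%. Over all 9619 repeat loci of that level the shares were 18.3% and 54.7%. Relative to the median of all repeat loci, a scaling chosen after seeing the data, 66 member loci were higher and 61 lower. Centring on a median near that of the members makes such counts nearly equal by construction. Against INPUT 58 of 263 member loci were higher and 86 lower, with 24.9% and 38.9% over all loci, and against TOTAL 58 of 225 were higher and 59 lower, with 27.7% and 29.5% over all. Scaled to the summed repeat means, 101 were higher and 20 lower against TOTAL. This scaling raises all repeat loci alike, since their summed means had a log2 ratio of -0.746 there. The share over all loci is not given under it, so these 2 counts show no lean of the members. The median log2 ratio of member loci was -1.15 in IP vs BO, where that of all repeat loci was -1.19. The share of lower loci in the BO table was thus close to that of all repeat loci.

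Among the loci of RMER16A3 a few held most of the listed counts, though the locus means hold only 13.9 counts per 100 recovered RMER16A3 reads in BO. Between IP and BO, 7 of its 74 loci had a mean of at least 10, and the 4 highest held 75.8% of the summed BO means. All 7 were at least 2-fold lower in IP, where 54.7% of all repeat loci of that level were. Their log2 ratios ran from -4.49 to -1.84, beside a median of -1.19 over all repeat loci. RMER16A3_234 and RMER16A3_563 reached a mean of 10 in BO only, with IP means of 7.06 and 6.83. RMER16A3_332 had a BO mean of 223 and an IP mean of 51.4, and RMER16A3_624 had 205 and 14.7. RMER16A3_92 had 200.1 in BO and 34.0 in IP, while RMER16A3_234 had 180 and 7.06. The last of these had the smallest ratio among loci with a mean of at least 50, 22.5-fold lower in IP on means plus 1. RMER16A3_234 was also lower in IP than in INPUT (40.4 against 9.24) and in TOTAL (41.7 against 9.21), while RMER16A3_332 stood at 51.5 in TOTAL against 67.4 in IP.

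RMER19B held 54 of the 239 counted loci, more than any other name. Of these, 6 were at least 2-fold higher and 22 at least 2-fold lower in IP than in BO, where against INPUT 19 of 54 were higher and 9 lower, and against TOTAL 18 of 53 were higher and 7 lower. Over all repeat loci the shares higher and lower were 18.3% and 54.7% against BO, 24.9% and 38.9% against INPUT, and 27.7% and 29.5% against TOTAL, so the lean to lower loci against BO is shared by all loci. RMER19B_2621 had the highest IP mean of the members, 211, beside a BO mean of 209. RMER19B_3714 was 4.7-fold higher in IP on means plus 1 (19.0 in BO and 92.8 in IP), and RMER19B_1563 was 3.11-fold higher (34.2 and 109). RMER19B_4055 had 22.5 in BO and 65.6 in IP. In contrast, RMER19B_2176 and RMER19B_2175 had BO means of 79.9 and 95.9 and IP means of 2.73 and 7.48, so that loci of 1 name lay at both ends.

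**Figure D4:**
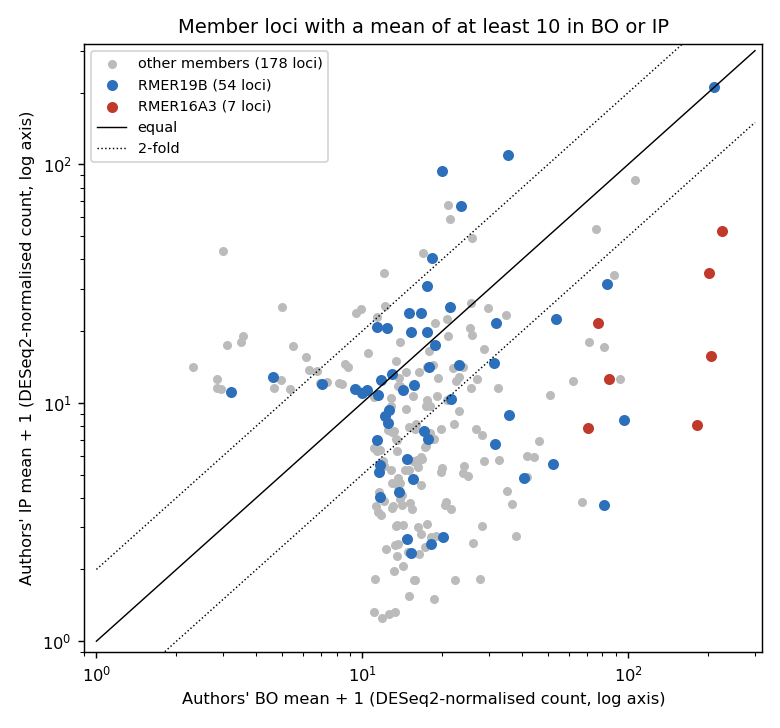
Authors' mean in IP against the authors' mean in BO, both plus 1 on log axes, for the 239 member loci with a mean of at least 10 in either group. The 7 RMER16A3 loci (red) all lie below the lower 2-fold line, and the 54 RMER19B loci (blue) spread on both sides of the line of equal means.

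The remaining loci named by their size were of other subfamilies. RMER6D_1778 was 2.76-fold higher in IP than in BO on means plus 1 (20.5 and 58.3), and RMER19B2_2250 was 3.25-fold higher (19.9 and 66.9). RMER6C_30 had 105 in BO and 85.2 in IP. Its log2 ratio of -0.299 turned to 0.218 scaled to the summed repeat means and to 0.893 relative to the median of all repeat loci. RMER4B_4596 was 17.6-fold lower in IP on means plus 1, with 66.1 in BO and 2.82 in IP. Its log2 ratio of -4.135 moved to -3.185 with a pseudocount of 5 and to -2.943 relative to the median of all repeat loci.

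Beyond that rule, a few loci were picked after their values were seen. RMER19C_2340 had a mean of 1.98 in BO and 42.1 in IP. RMER13B_199 had 1.3 in TOTAL and 29.8 in IP. RMER12B_401, the locus with the highest BO mean of RMER12B, had 92.5 in BO and 11.6 in IP. RMER20B_67 had 59.1 in TOTAL and was listed at 0 in IP, although the RMER20B subfamily was higher in IP than in TOTAL.

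The locus tables hold a part of the reads that the subfamily table holds, and the part differs between names. Per 100 recovered reads of a subfamily, the summed locus means in BO were 35.7 at the median of the 49 names, and ranged from 5.63 for RMER6B to 80.0 for RMER6BA. RMER16A3 had 13.9 and RMER16C 12.2. Locus means are scaled by DESeq2 and recovered reads are not scaled, so these values compare names within a group and not groups. For RMER6B, only 4 of 313 loci had a mean of at least 10, and the highest, RMER6B_1133, had 22.1 in BO and 8.26 in IP, so the fold change of RMER6B rests on reads that the locus tables hold only in small part. For RMER16C the summed locus means were 18.9 in BO and 3.43 in IP, the opposite direction to the subfamily table. Summed locus means were lower in IP for 8 of the 9 members whose subfamily level was higher in IP than in BO at an adjusted p under 0.05, but those of all repeat loci were lower too, with a log2 ratio of -0.52. Relative to that ratio, 3 of the 9 were lower and 6 higher. Against INPUT and TOTAL, 0 of 7 and 0 of 4 such members were lower than the ratio of all repeat loci, which was -0.27 and -0.75. Of the members whose subfamily level was lower, 8 of 8 against BO and 13 of 14 against INPUT also had locus sums below that ratio. Against TOTAL this held for 1 of 12, and the other 11 lay above it, although all 12 sums were lower in IP without that adjustment. Which reads make the difference was not tested.

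**Figure D5:**
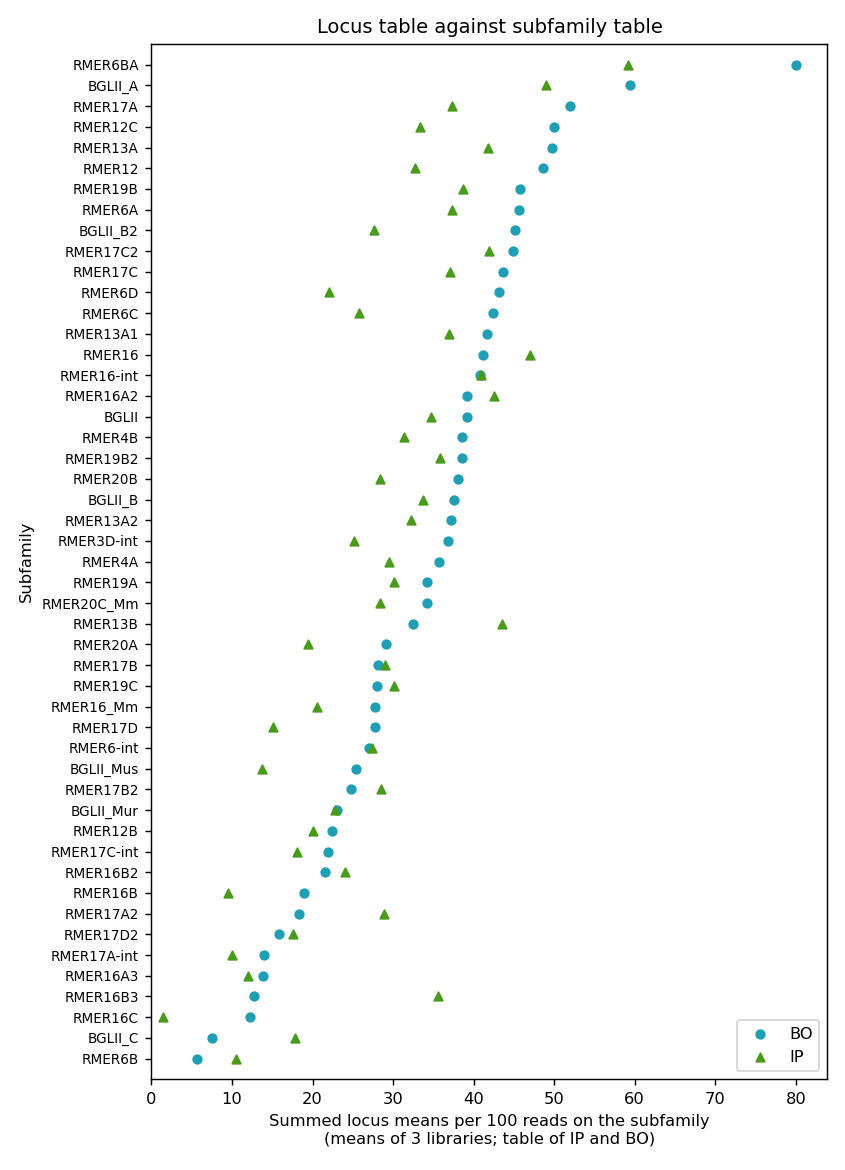
Summed locus means per 100 recovered reads of each of the 49 subfamilies, for BO (circles) and IP (triangles) in the table that pairs them, on an axis from 0. The values range from 5.63 to 80.0 in BO, and RMER6B, BGLII_C, RMER16C and RMER16A3 are among the lowest there.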

How the data were processed

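For subfamilies, STAR 2.6.0c alignments to mm10 were passed by the authors to Telescope for ambiguous reads, summed by repeat name and normalised with EBSeq. The deposited signal is this upper-quartile normalised count per library. Values came in steps of 1 read, 100% of them whole within 0.1 read, which gave the recovered reads, and counting error is smallest for the deepest libraries. For loci, the authors ran DESeq2 1.24.0 on IP against each other group, and the deposited signal is the mean normalised count of each group. The authors' fold changes, statistics and p-values in these tables were not used. No column of per-sample values was left unused (0).

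The 1180 subfamilies whose mean over 12 libraries was 10 or more were fitted as log2(normalised count + 1) with limma 3.58.1 in R 4.3.3, in 1 fit of the 4 groups with no block, with Benjamini-Hochberg adjustment over all 1180. The 5 comparisons were IP vs BO, IP vs INPUT, IP vs TOTAL, INPUT vs TOTAL and BO vs INPUT. The fit was tested on simulated data. Replicate numbers were checked as pairs by the correlation of deviations from group means. Same-numbered INPUT and TOTAL libraries correlated at 0.63, 0.34 and 0.32. TOTAL replicate 2 correlated with INPUT replicate 3 at 0.33, close to its value with INPUT replicate 2. Same-numbered INPUT and BO libraries correlated at 0.30, 0.06 and 0.56. These correlations therefore do not settle which groups, if any, the replicate numbers pair. Loci with a larger mean of at least 10 were compared by (IP + 1)/(other + 1).

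Named subfamilies were those called in any comparison and the 5 with the highest mean, and named loci were the 5 with the highest IP mean and the 5 largest and 5 smallest ratios to BO with a mean of at least 50. Other names illustrate a stem and were chosen after their values were seen. The fit was repeated with a pseudocount of 0.1 or 10, without the filter or with 1 at 100, on library totals, with median-ratio scaling, on the compared groups only, with a replicate block, with edgeR 4.0.16 and DESeq2 1.42.0 on recovered reads, and with each library left out. For loci, minimum means of 5 and 50, a pseudocount of 5, a 4-fold limit and 2 other scalings were tried. The members and lists were chosen with earlier results of these data known. Loci carry a name and a number without coordinates in the files, so no position or sequence is given.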

Additional observations from a re-analysis of the deposited data

How the results depend on the processing

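The calls of RMER16A3 in IP vs BO and in BO vs INPUT, and those of RMER6B and RMER12B in IP against BO and INPUT, kept their direction and their side of the threshold under every setting but library totals, where RMER12B (-0.75 against BO, -0.62 against INPUT) and RMER6B against BO (-0.97) fell short. Over 85 subfamily fold changes and all their alternatives, 1806 of 1868 kept their sign and their side of the call threshold (size and adjusted p together), and 37 changed sign, 30 of them on library totals. Values that kept their side could still move, as BGLII_B in IP vs INPUT did to -0.05 on library totals (limma, adjusted p = 0.9156). Library totals include the large shares of 7SL RNA in TOTAL and of LSU rRNA in BO replicate 3 given above. On library totals the members called higher and lower were 5 and 1 against BO, 2 and 1 against INPUT, and 44 and 0 against TOTAL, and 28 were higher in INPUT than in TOTAL. The median log2 fold changes of all subfamilies there were 0.362, 0.472, 1.487 and 1.028, so all subfamilies moved with the members. The share of all subfamilies called on library totals is not given, so these counts show nothing particular to members. Median-ratio scaling and DESeq2 each called 1 member higher against BO, and median-ratio scaling, edgeR and DESeq2 each called 1 lower against TOTAL, which lost RMER6B. With no filter RMER3D3 was called too, as 1 member lower in BO than in INPUT and as the third of 3 lower in IP than in INPUT. Causes were not tested.

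With the replicate block, 1 member (BGLII_C) was called higher in IP than in BO where 0 had been, and every other count of calls was the same. At an adjusted p under 0.05 with no limit on size, the block raised the members higher in INPUT than in TOTAL from 0 to 3 and moved the other counts by less than 1.5 times. Same-numbered libraries correlated above 0.1 in 8 of 18 pairs, between -0.14 and 0.63 with a median of 0.09. Differently numbered libraries did so in 9 of 36 pairs, between -0.51 and 0.33 with a median of -0.06.

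With each library left out in turn, the count higher against BO ran from 0 to 1 (BGLII_C called without BO replicate 1, IP replicate 1, TOTAL replicate 1 or TOTAL replicate 3), and the count lower in BO than in INPUT from 0 to 1 (BGLII_C without BO replicate 1, TOTAL replicate 1 or TOTAL replicate 3). The count lower against TOTAL ran from 0 to 2, with 0 without TOTAL replicate 1 and 1 without IP replicate 3. The other counts did not move, at 3 lower against BO, 2 lower against INPUT, 1 higher in BO than in INPUT and 0 for the rest. RMER19B in BO vs INPUT ran from -0.076 to 0.014, above 0 without INPUT replicate 3 (0.014) or BO replicate 1 (0.011), and was 0.025 on library totals. RMER12B there ran from -0.002, without BO replicate 2, to 0.141, and was -0.001 with edgeR.

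The signs listed next are those among the 85 fold changes only. In IP vs TOTAL every tested member was above 0 on library totals, the lowest at 0.473, so unlisted members below 0 turned too. Signs that turned on library totals were, in IP vs BO, those of RMER12 (0.064), RMER12C (0.086), RMER16_Mm (0.11), RMER17D (0.012), RMER4B (0.35) and RMER6A (0.43). RMER6A also turned under median-ratio scaling (0.056), edgeR (0.06) and DESeq2 (0.053). In IP vs INPUT they were RMER12C (0.18), RMER17C (0.082), RMER17C-int (0.25), RMER4A (0.13), RMER4B (0.20), RMER6A (0.27) and RMER6BA (0.068). In IP vs TOTAL they were BGLII_B (1.16), RMER12B (0.86), RMER12C (1.27), RMER16 (1.003), RMER16A3 (1.17), RMER16_Mm (0.47), RMER17C (1.29), RMER17C-int (1.21), RMER17D (0.93), RMER4B (1.30), RMER6A (1.33), RMER6B (0.50) and RMER6BA (0.90), and in INPUT vs TOTAL RMER16_Mm (0.53), RMER6C (0.53) and RMER6D (0.42).

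Counts of loci depend on the limits by construction. Shares over all repeat loci are given only for the main setting. The counts at other settings therefore show no lean of members beside all loci. With a minimum mean of 5, the loci higher and lower were 79 and 282 against BO, 138 and 185 against INPUT, and 122 and 158 against TOTAL. With a minimum of 50 they were 5 and 18, 8 and 5, and 9 and 3. With a 4-fold limit they were 9 and 67, 17 and 26, and 18 and 16. A pseudocount of 5 gave 38 and 54 against INPUT and 30 lower against TOTAL. Scaling to the summed repeat means gave 101 and 20 against TOTAL. Relative to the median of all repeat loci, an alternative chosen after seeing the data, the counts were 66 and 61 against BO, and 55 were lower against INPUT. With a pseudocount of 5 the log2 ratio of RMER16A3_234 in IP vs BO moved from -4.49 to -3.94. Relative to that median it was -3.298, and the ratio of RMER19B_3714 moved from 2.231 to 3.424. The ratio of RMER19B_2621 moved from 0.012 to 1.204.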

Other observations

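Loci of 1 name are numbered in the files. RMER19B_2174, RMER19B_2175 and RMER19B_2176 had BO means of 51.0, 95.9 and 79.9 and IP means of 4.53, 7.48 and 2.73. Neighbours in number could also differ, as RMER6A_2729 (11.0 in BO and 4.72 in IP) and RMER6A_2730 (10.4 and 21.9) did. Their positions are not given in the files, and these loci were noticed after their values were seen. In the table of IP and INPUT, RMER6D_1781 and BGLII_B_414 had INPUT means of 65.8 and 74.9 and IP means of 8.82 and 16.5.

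The 10 highest member loci held 11.04% of all member locus means in BO and 9.55% in IP, and the 100 highest held 31.0% and 26.9%.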
